A study of Vitis vinifera with 18 samples.

Results

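Fully ripe berries of the red grapevine variety Aglianico (Vitis vinifera) from Molise were set against those from Campania, 2 of the 3 sites in southern Italy where the series sampled it. The 5 libraries are Aglianico Molise replicates 1, 2 and 3 and Aglianico Campania replicates 1 and 2, out of 18 libraries in all. The library labelled Aglianico Campania replicate 3 was left out because its profile is that of Cabernet Sauvignon: its log2 levels correlated across clusters, on average, at 0.985 with the Cabernet Sauvignon Campania libraries and at 0.916 with the other two Aglianico Campania libraries. The series also holds Aglianico from Sicily and Cabernet Sauvignon, an international variety, from the same 3 sites (n = 3 per group by the labels). Vines at both sites were open-field plants trained as bushes at a height of 0.5 m, and each replicate was RNA from 10 ground berries with the seeds taken out. The site differs together with everything that varied between the vineyards, such as climate, soil and vines, and these cannot be told apart. Nothing in the labels says whether replicates came from separate vines, so p-values measure the spread between these libraries.

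A ripe grape berry is skin and pulp around the seeds. During ripening the pulp gathers sugars and loses organic acids, and in red varieties the skin gathers anthocyanin pigments and other phenolics made by the phenylpropanoid and flavonoid pathways. The expression of these genes is known to respond to light, temperature and water supply. The question named by the series is how genotype and environment act together on expression in the berry.

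The measured features were 97442 clusters, which the files name by number and do not pair with genes. Of these identifiers 0 matched the RefSeq gene table of assembly GCF_030704535.1, so no gene, pathway or marker of a berry tissue could be named, and the clusters are described by level and by pattern over the libraries. Where genes or alleles share sequence, the estimated counts can be divided between clusters, which adds uncertainty to the value of any 1 of them. The 24472 clusters with 10 or more counts in at least 2 of the 5 libraries were tested. They fell into 3 classes: 23449 were counted in all 5 libraries, 201 were on/off (no count at 1 site and 10 or more counts in at least 2 libraries of the other) and 822 had a 0 in some library without being on/off.

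The Molise libraries held 23546960, 22936257 and 23515229 estimated counts, against 31859655 and 22637316 in the Campania libraries. Clusters with 10 or more counts numbered 21208, 23333 and 20817 at Molise and 24355 and 23332 at Campania, so the sites overlapped. The 20 most abundant clusters took 18.3% ± 2.93 of the counts at Molise (SD, n = 3) and 19.8% ± 4.33 at Campania (SD, n = 2). Neither measure differed by more than the libraries' spread (exact two-sided permutation p = 0.3 and 0.7; 3 against 2 libraries cannot go below 0.1). Over 15205 clusters at 1 CPM (counts per 1e6 counts of the library, with scaling between libraries) or more in all 5, the median absolute log2 difference between 2 libraries was 0.24 to 0.34 within Molise and 0.35 within Campania. Between the sites it was 0.3 to 0.45. By this measure the pairs between sites overlapped with the pairs of replicates. By correlation of log2(CPM + 0.5) over all 24472 tested clusters they did not, with Pearson's r of 0.907 to 0.935 between sites, 0.94 to 0.957 within Molise and 0.953 within Campania.

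Few clusters passed the threshold of the 5-library test, and those that did differed by wide margins. With 3 against 2 libraries smaller differences can fail to pass, so the number called is no count of the clusters that differ. With edgeR's quasi-likelihood test on the 5 libraries and Benjamini-Hochberg adjustment over all 24472 clusters, 31 were called at an adjusted p under 0.05, 0.127% of those tested. Of these, 19 were higher at Molise (0.0776%) and 12 lower (0.049%). In bulk tissue, fewer cells of a kind and less RNA per cell cannot be told apart. Among clusters counted in all 5 libraries the median absolute log2 fold change was 5.18 in the 15 called and 0.39 in all 23449. An unadjusted p under 0.05 was reached by 3439 clusters, or 14.1%. In 3963 clusters (16.2%) all Molise libraries lay above both Campania libraries, and in 4588 (18.7%) all lay below. The count of 31 depended on single libraries: it was 93, 50 and 13 without Molise replicates 1, 2 and 3, 26 without Campania replicate 1 and 71 without Campania replicate 2. DESeq2 called 1244 on the same counts and limma-voom 9.

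**Figure D1:**
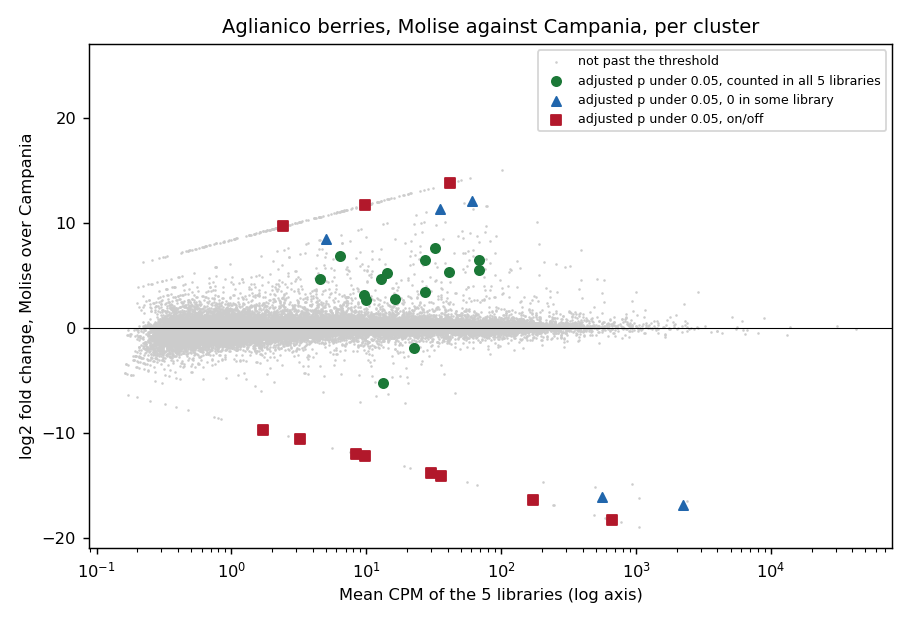
Each point is a cluster, with its mean CPM over the 5 Aglianico libraries on a log axis and its log2 fold change, Molise over Campania, on the vertical axis. The 31 called clusters are coloured by class (15 counted in all 5 libraries, 5 with a 0 in some library, 11 on/off). The diagonal lines of points at the top and bottom are clusters with no count at 1 site, whose fitted fold change depends on the small count that the fit adds.

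Among the clusters counted in all 5 libraries, 13 rose and 2 fell at Molise. The 13 averaged 7.4 to 113.7 CPM at Molise (median of the clusters' means 24.8 CPM) and 0.0908 to 4.07 CPM at Campania (median 1.36 CPM). Their log2 fold changes ran between 2.6 and 7.53, with adjusted p between 0.00193 and 0.0485 (edgeR). In none of the 15 did a Molise library overlap with a Campania library, which also held for 8054 of the 23449 tested clusters of this class. All 15 were also called, with the same sign, when the spread was estimated over 11 libraries, but 9 of them in a fit on the 8 Aglianico libraries that includes Sicily (30 calls in this class). Without Molise replicate 3 this class kept 2 of its 15 calls, with 3 calls in all; without Molise replicate 1, Molise replicate 2 or Campania replicate 2 it had 29, 29 and 28.

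Cluster-27903.16623 had the largest rise of this class. It stood at 66.3, 50.4 and 42.6 CPM in the Molise libraries, against 0.102 and 0.476 CPM in the Campania libraries. Every Molise library was far above both Campania libraries, whose summed count was 15. The log2 fold change was 7.53 ± 0.68 (SE, adjusted p = 0.0336, edgeR). Leaving out Molise replicate 2 gave an adjusted p of 0.072 and leaving out replicate 3 one of 0.107, both above the threshold of 0.05, with the same sign. In Aglianico from Sicily the cluster averaged 0.497 ± 0.86 CPM (SD, n = 3), so Sicily berries resembled those from Campania in it.

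Cluster-27903.37374 came next. It had 4.61, 15.2 and 11.7 CPM at Molise, against 0.102 and 0.0794 CPM at Campania, where 5 counts were found in all. The sites did not overlap, although the Molise libraries spread widely among themselves. The log2 fold change was 6.77 ± 0.74 (SE, adjusted p = 0.0373, edgeR), a call lost without Molise replicate 2 (0.0544), Molise replicate 3 (0.125), Campania replicate 1 (0.319) or Campania replicate 2 (0.16). At Sicily this cluster was at 23.1, 0 and 18.3 CPM, thus above every Molise library in 2 libraries and without a count in the other.

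Cluster-27903.34611 showed the deepest fall. It had 0.448, 1.18 and 0.734 CPM at Molise, against 22.7 and 40.9 CPM at Campania. The log2 fold change was -5.32 ± 0.47 (SE, adjusted p = 0.0184, edgeR), lost without Molise replicate 3 (0.119). Within Aglianico, Molise was the site that stood apart, since the Sicily libraries averaged 35.3 ± 5.46 CPM (SD, n = 3). Cabernet Sauvignon averaged 80.2 ± 26.5 CPM at Molise and 67.5 ± 18 CPM at Campania (SD, n = 3 each), and its Sicily libraries stood at 22.3, 23.1 and 2.52 CPM.

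Cluster-27903.28530 was the other fall. Its levels were 11, 11.7 and 8.3 CPM at Molise, against 39.5 and 41.3 CPM at Campania, with little spread inside either site. The log2 fold change was -1.97 ± 0.23 (SE, adjusted p = 0.0443, edgeR). This call was lost without any 1 of the 5 libraries (adjusted p = 0.0696, 0.0664 and 0.135 without Molise replicates 1, 2 and 3, and 0.194 and 0.114 without Campania replicates 1 and 2). At Sicily the cluster averaged 7.48 ± 2.46 CPM (SD, n = 3), close to Molise. In Cabernet Sauvignon it ran the other way, with 19.4 ± 2.18 CPM at Molise and 8.18 ± 0.677 CPM at Campania (SD, n = 3 each). There the log2 fold change was 1.24 ± 0.16 (SE, adjusted p = 0.00345) and the test of the difference between the varieties gave -3.21 ± 0.24 (SE, adjusted p = 0.000651, edgeR).

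**Figure D2:**
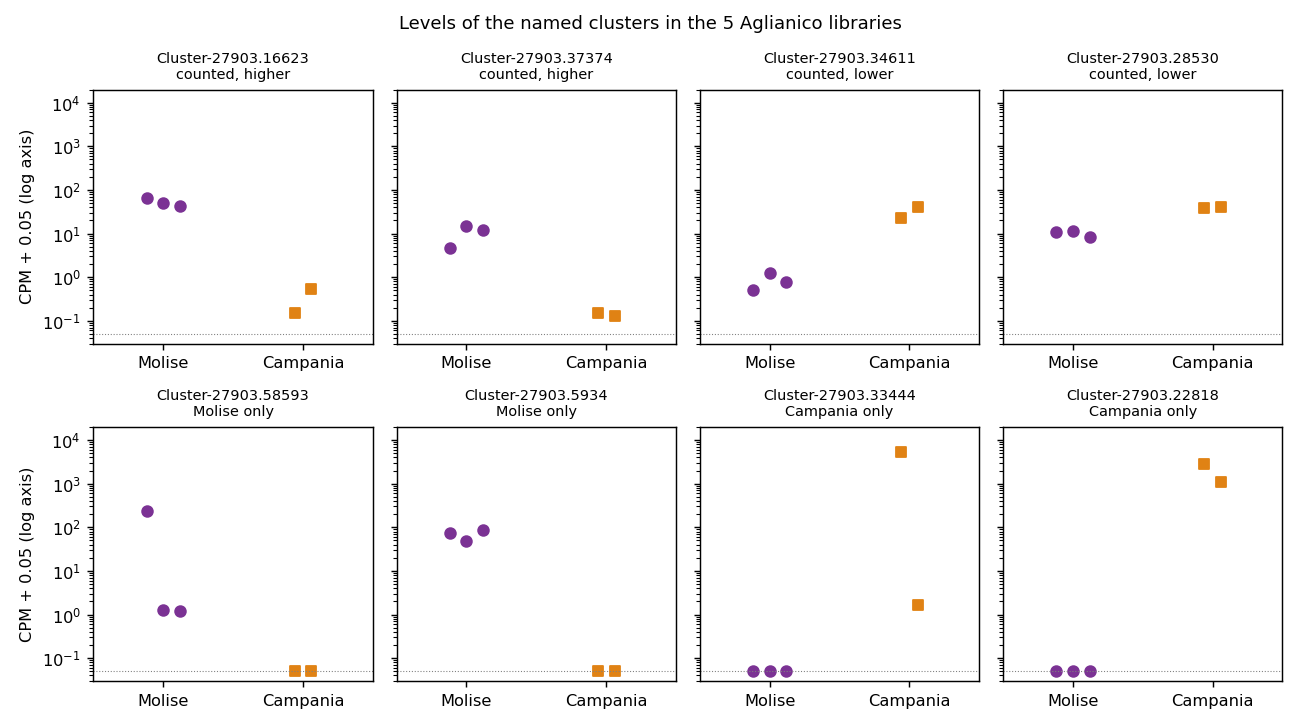
Each panel is a named cluster and each point a library, Molise circles and Campania squares, with CPM + 0.05 on a log axis and a dotted line at no count. In the top row the sites do not overlap. In the bottom row, Cluster-27903.58593 and Cluster-27903.33444 owe their site means to 1 library each (238.3 and 5280 CPM).

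The 20 most abundant clusters held no call of the 5-library test. That test called 0.127% of all tested clusters, so a call among 20 was unlikely at that share. At a mean of 1000 CPM or more, 1 of 92 clusters was called (1.09%). Of the 20 most abundant clusters, with means of 2852 to 42480 CPM, 0 were called by edgeR, where the lowest adjusted p was 0.293. An unadjusted p under 0.05 was reached by 1 of them, DESeq2 called 1 and limma-voom called 0. The most abundant cluster was at 49795, 25603 and 47976 CPM at Molise, against 54262 and 34765 CPM at Campania. The sites overlapped and the log2 fold change was -0.11 (adjusted p = 0.921, edgeR). In this cluster replicate 2 was the lowest library of each site. The widest log2 fold change among the 20 was 3.43, in a cluster at 10045, 2611 and 797 CPM at Molise, against 313 and 518 CPM at Campania (adjusted p = 0.376). Its Molise libraries spread over more than a 10-fold range, although all were above Campania. Among the 1000 most abundant clusters 0 were called higher and 4 lower at Molise by edgeR, beside 100 and 70 at an unadjusted p under 0.05. DESeq2 called 49 higher and 37 lower of them, and limma-voom 0 and 3. Over all tested clusters edgeR called 0.0776% higher and 0.049% lower. Of the 1000, 203 lay wholly above and 143 wholly below Campania (20.3% and 14.3%, beside 16.2% and 18.7% of all tested clusters).

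Whether Molise or Campania was higher, counting differences that were not called, varied with the level of a cluster. In the 6144 clusters with a mean under 1 CPM, 7.88% lay wholly above Campania at Molise and 28.8% wholly below, with a median log2 fold change of -0.38. Clusters this low can pass the filter of 10 counts in 2 libraries through the Campania libraries alone or through Molise libraries alone, so the filter enters these shares. In the 8076 clusters at 10 to 100 CPM the shares were 21.2% and 12.5%, with a median of 0.08. Under upper-quartile scaling, which moves log2 fold changes by -0.12, that median would be below 0. The calls of the 5-library test did not follow this order, with 0 under 1 CPM and, at 100 CPM or more, 0 higher and 4 lower at Molise. Campania replicate 1 was the deepest of the 5 libraries (31859655 counts) and had the most clusters with 10 or more counts. The parts of depth and of the filter in the lean of low clusters towards Campania were not tested.

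Pooling the spread over more libraries gave a longer list. In a fit on 11 libraries (the 5 Aglianico libraries and Cabernet Sauvignon from Molise and Campania, n = 3 each), 391 clusters were higher (1.6% of those tested) and 354 lower (1.45%) at Molise in Aglianico, and 30 of the 31 calls above were among them with the same sign. A fit on the 8 Aglianico libraries held 16 of the 31, among 38 calls. Of the 745 calls on 11 libraries, 367 higher and 318 lower clusters were counted in all 5 Aglianico libraries. In each of them the sites did not overlap, beside 8054 of all 23449 counted clusters, but the calls were chosen by these same libraries. The log2 fold changes of these calls were moderate. Their median was 1.35 (quartiles 0.93 and 2.15) for the higher and -1.29 (quartiles -2.01 and -0.91) for the lower clusters. An absolute log2 fold change of 2 or more was reached by 108 of the higher and 80 of the lower clusters. The total of 745 was 118 without Campania replicate 1, 1188 without Campania replicate 2, 1536 without Molise replicate 2 and 254 without Molise replicate 3. Leaving out a Cabernet Sauvignon library lowered it to 436, 352 and 371 (Molise replicates 1, 2 and 3) or 462, 423 and 455 (Campania replicates 1, 2 and 3). Under upper-quartile scaling, which moves all log2 fold changes by -0.12, the split was 306 higher and 572 lower, so the balance of directions depended on the scaling.

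The 11-library list reached abundant transcripts, with 37 higher and 29 lower among the 1000 most abundant clusters. Over all tested clusters the shares were 1.6% and 1.45%. The most abundant higher cluster had 2197, 2914 and 2465 CPM at Molise, against 1377 and 898 CPM at Campania. Its log2 fold change was 1.15 ± 0.23 (SE, adjusted p = 0.026 over 11 libraries and 0.225 over 5, edgeR). The most abundant lower cluster had 571, 564 and 543 CPM at Molise, against 1439 and 834 CPM at Campania. Its log2 fold change was -1.02 ± 0.23 (SE, adjusted p = 0.0418 over 11 libraries and 0.235 over 5, edgeR). Both were separated by site, and in the lower one the Molise libraries lay within a narrow range and the Campania libraries far apart.

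Cabernet Sauvignon from the same 2 sites gave a comparison that shares no library with the Aglianico one. In that variety, 1134 of the 24472 clusters were higher (4.63%) and 1129 lower (4.61%) at Molise in the 11-library fit. Of the 13 counted clusters that rose in Aglianico at Molise, 12 had a positive log2 fold change in Cabernet Sauvignon and 9 were called higher there, against the 4.63% of all tested clusters. The remaining cluster, Cluster-27903.58664, singled out after its values were seen, had no count in any Cabernet Sauvignon library. In Aglianico it had 57, 101.2 and 41.7 CPM at Molise, against 2.15 and 1.27 CPM at Campania. The 13 averaged 0 to 91.7 CPM in Cabernet Sauvignon Molise libraries (median 16.6 CPM) and 0 to 13.8 CPM in Campania ones (median 4.08 CPM). Cluster-27903.16623, for example, averaged 16.6 ± 6.52 CPM at Molise and 1.75 ± 0.306 CPM at Campania in Cabernet Sauvignon (SD, n = 3 each). Its log2 fold change there was 3.23 ± 0.42 (adjusted p = 0.00392, edgeR, ± SE), and the rise was wider in Aglianico, with an interaction of 4.31 ± 0.68 (SE, adjusted p = 0.0161). Such a difference between the varieties was called for 7 of the 13, against 2.68% of all tested clusters, but the 13 were chosen by their Aglianico difference, which enters the interaction. In Aglianico from Sicily the 13 averaged 0.071 to 14.4 CPM (median 4.52 CPM). In 12 of them every Sicily library was below every Molise library, the exception being Cluster-27903.37374. Choosing the 13 by their rise at Molise in Aglianico favours such a pattern. In Cabernet Sauvignon from Sicily the median of the 13 was 22.3 CPM (range 0 to 195.3 CPM). There 10 of the 13 had a higher mean than in Cabernet Sauvignon from Campania. For neither Sicily pattern was the share over all tested clusters counted, so no conclusion is drawn from them. The Cabernet Sauvignon counts were sensitive to its own libraries, with 529, 601 and 684 calls without Molise replicates 1, 2 and 3 and 646, 825 and 776 without Campania replicates 1, 2 and 3, against 2263 in all.

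**Figure D3:**
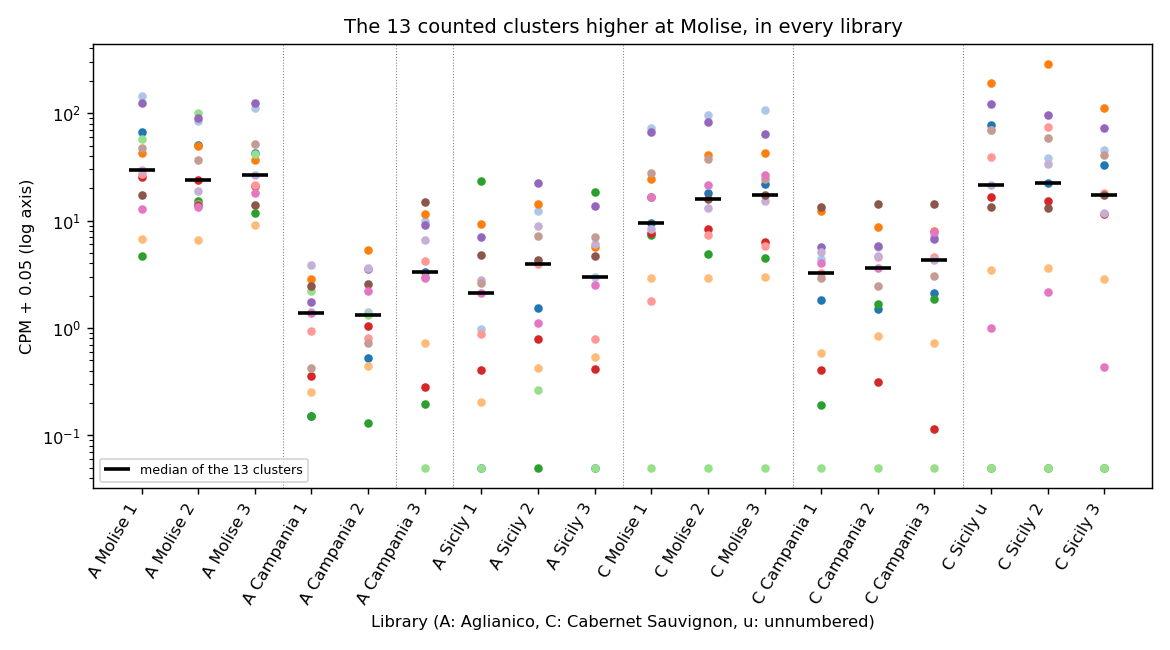
Points are the 13 counted clusters higher at Molise in Aglianico, 1 colour per cluster, with CPM + 0.05 on a log axis in each of the 18 libraries; black bars are medians over the 13 clusters in a library. The medians are high in both varieties at Molise and in Cabernet Sauvignon at Sicily, and low in the other groups. The library labelled Aglianico Campania replicate 3, drawn apart, was not used in the test.

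The longer list moved together between the varieties to a smaller extent. Of the 391 clusters higher in Aglianico at Molise, 86 were called higher in Cabernet Sauvignon as well (22% of the Aglianico list and 7.58% of the Cabernet Sauvignon list) and 19 were called lower. Of the 354 lower clusters, 42 were called lower in both varieties (11.9% and 3.72% of the lists) and 20 were called higher in Cabernet Sauvignon. Over all tested clusters 4.63% were called higher and 4.61% lower in Cabernet Sauvignon. The opposite-direction shares of the Aglianico lists (4.86% and 5.65%) were near these. The median Cabernet Sauvignon log2 fold change was 0.23 for the Aglianico higher clusters and -0.13 for the lower ones, beside -0.03 over all tested clusters. A same-sign difference was seen in 61.9% of the higher and 57.6% of the lower clusters, against 45.6% positive and 52.5% negative differences over all tested clusters. Both lists rest on a shared estimate of each cluster's spread.

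**Figure D4:**
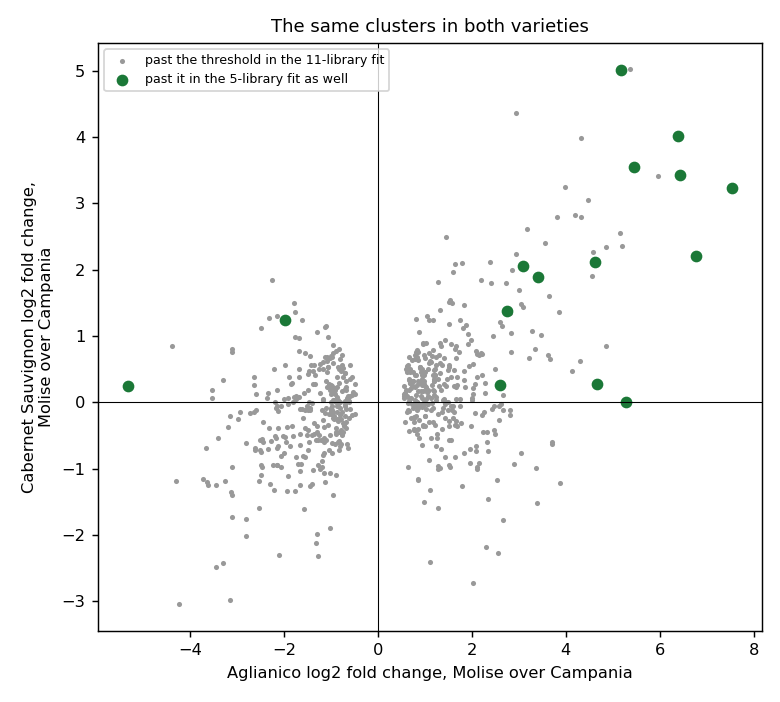
Each point is a cluster counted in all 5 Aglianico libraries and called in Aglianico in the 11-library fit (367 higher, 318 lower), with the log2 fold change, Molise over Campania, in Aglianico on the horizontal axis and in Cabernet Sauvignon on the vertical axis. The 15 clusters also called in the 5-library test are drawn larger; of the 13 to the right, 12 lie above the horizontal line.

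The site difference itself differed between the varieties in 655 clusters (2.68% of those tested; interaction in the 11-library fit, edgeR, adjusted p under 0.05). In 587 of them the site differences had opposite signs, which selection by the interaction favours. Over all tested clusters the signs were the same in 57.4%. The site difference was called in Cabernet Sauvignon but not in Aglianico in 344, in Aglianico but not in Cabernet Sauvignon in 169, in both with opposite signs in 39 and in both with the same sign in 10. The interaction was positive in 360 and negative in 295, but under upper-quartile scaling in 297 and 419. The count was 331, 1849 and 256 without Aglianico Molise replicates 1, 2 and 3 and 329 without Aglianico Campania replicate 2. It was 165, 185 and 179 without Cabernet Sauvignon Molise replicates 1, 2 and 3, and 184, 153 and 349 without its Campania replicates 1, 2 and 3.

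Cluster-27903.34611, described above, had the most negative interaction among called clusters counted in all 11 libraries with a mean of 5 CPM or more, at -5.57 ± 0.59 (SE, adjusted p = 0.00481, edgeR). Its Cabernet Sauvignon log2 fold change was 0.25 ± 0.36 (SE, adjusted p = 0.709), so of these 11 libraries only those of Aglianico from Molise were low. Cluster-27903.21774 came next under the same conditions, with 2.33, 1.3 and 0.734 CPM in Aglianico at Molise, against 17.9 and 6.98 CPM in Aglianico at Campania. In Cabernet Sauvignon it averaged 19.5 ± 3.57 CPM at Molise and 11.2 ± 1.92 CPM at Campania (SD, n = 3 each). The interaction was -3.89 ± 0.61 (SE, adjusted p = 0.0156, edgeR), lost without Cabernet Sauvignon Campania replicate 2 (0.0509).

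The most positive interaction under these conditions was that of Cluster-27903.29897, at 5.54 ± 0.75 (SE, adjusted p = 0.0107, edgeR). It had 4.03, 3.66 and 2.84 CPM in Aglianico at Molise, against 1.77 and 0.357 CPM in Aglianico at Campania, a difference that was not called (adjusted p = 0.331). In Cabernet Sauvignon it ran the other way, with 1.33 ± 0.384 CPM at Molise and 19 ± 6.09 CPM at Campania (SD, n = 3 each). Cluster-27903.31930 showed the same form, with 12.4, 6.53 and 13.1 CPM in Aglianico at Molise, against 1.7 and 1.94 CPM in Aglianico at Campania. In Cabernet Sauvignon it averaged 6.4 ± 2.17 CPM at Molise and 30.9 ± 12.4 CPM at Campania (SD, n = 3 each), and the interaction was 4.82 ± 0.6 (SE, adjusted p = 0.00781, edgeR).

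Among the on/off clusters, 163 had counts at Molise alone and 38 at Campania alone among the 5 libraries. The definition is unequal between the sites. It asks for 10 counts in any 2 of 3 libraries at Molise, so a Molise-only cluster may lack counts in the third, but in both libraries at Campania. With 10 or more counts in every library of the site the numbers were 51 and 38. The absence asked for stays unequal, with no count in 2 libraries for Molise only and in 3 for Campania only. The 2 numbers are therefore no comparison of the sites. The 163 Molise-only clusters had a median of the clusters' means of 4.96 CPM (range 0.371 to 167.8 CPM). A mean of 100 CPM or more was found in 1 of them, and a level of 100 CPM or more in a single Molise library in 8. They took 0.258%, 0.227% and 0.117% of the counts of the Molise libraries. Their levels varied between replicates: in 126 of them the highest Molise library was over 10-fold above the lowest or the lowest held no count. Replicate 1 was the highest library for 56, replicate 2 for 73 and replicate 3 for 34. In the 5-library test 3 of the 163 were called.

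The 38 Campania-only clusters had a median of the clusters' means of 24.7 CPM (range 0.425 to 2641 CPM), and 7 of them averaged 1000 CPM or more. They took 1.93% and 0.887% of the counts of Campania replicates 1 and 2. The 2 Campania libraries differed by over 10-fold in 12. Since both had to hold 10 counts, this spread cannot be set against that of the Molise-only clusters. In the 5-library test 8 of the 38 were called, beside 0.127% of all tested clusters. On/off clusters of either site are picked by the difference that is then tested, so their calls are no separate support for it. The on/off calls numbered 11 in all and were 48 without Molise replicate 1, 7 without Molise replicate 3 and 24 without Campania replicate 2.

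Of the Molise-only clusters with 10 or more counts in every Molise library, the 2 with the highest mean illustrate both behaviours. Cluster-27903.58593 had 238.3, 1.22 and 1.15 CPM at Molise and no count at Campania. Its mean rests on replicate 1, and it was not called (adjusted p = 0.518, edgeR). Cluster-27903.5934 had 72, 48.8 and 86.7 CPM at Molise and no count at Campania, so the Molise libraries were alike. Against a floor of 3 counts summed over the Campania libraries its mean was at least 1258-fold higher (adjusted p = 0.0024, edgeR), a call that held without any 1 of the 5 libraries but was lost by limma-voom (0.121). Neither had a count in Aglianico from Sicily.

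The Campania-only pair with the highest means contrasts in the same way. Cluster-27903.33444 had no count at Molise, against 5280 and 1.59 CPM at Campania. It was not called (adjusted p = 0.537, edgeR), and was called without Campania replicate 2 (0.00465). Cluster-27903.22818 had no count at Molise, against 2810 and 1068 CPM at Campania. Against 3 counts summed over the Molise libraries its Campania mean gives a level at least 44960-fold lower at Molise, but the adjusted p was 0.111 with 5 libraries. It was 0.0298 without Molise replicate 1, 0.00883 without Campania replicate 1 and 0.00465 without Campania replicate 2. Both clusters were also found in Aglianico from Sicily, the first at 129.7, 13.4 and 3516 CPM and the second at 0, 4724 and 2881 CPM in replicates 1, 2 and 3. In Cabernet Sauvignon the highest library held 0.079 CPM of the first and 0.341 CPM of the second.

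The other libraries show where on/off clusters occur. Of the 38 Campania-only clusters, 28 had 10 or more counts in at least 1 Aglianico Sicily library, with 6, 9 and 27 of them in replicates 1, 2 and 3. Without replicate 3 the number was 10. In some Cabernet Sauvignon library 7 of the 38 reached 10 counts, and in the library labelled Aglianico Campania replicate 3 this held for 6. Of the 163 Molise-only clusters, 95 had no count in any of the 15 other libraries of the series. At least 1 Aglianico Sicily library held 10 or more counts of 16 of them (8 without Sicily replicate 2), and at least 1 Cabernet Sauvignon library of 19. By library, Cabernet Sauvignon Molise replicates 1, 2 and 3 held 7, 7 and 7 of them. Its Campania replicates 1, 2 and 3 held 14, 7 and 5, and its Sicily libraries 1 (unnumbered), 4 and 4. In Cabernet Sauvignon they were thus not confined to Molise. The library labelled Aglianico Campania replicate 3 held 10 or more counts of 15.

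**Figure D5:**
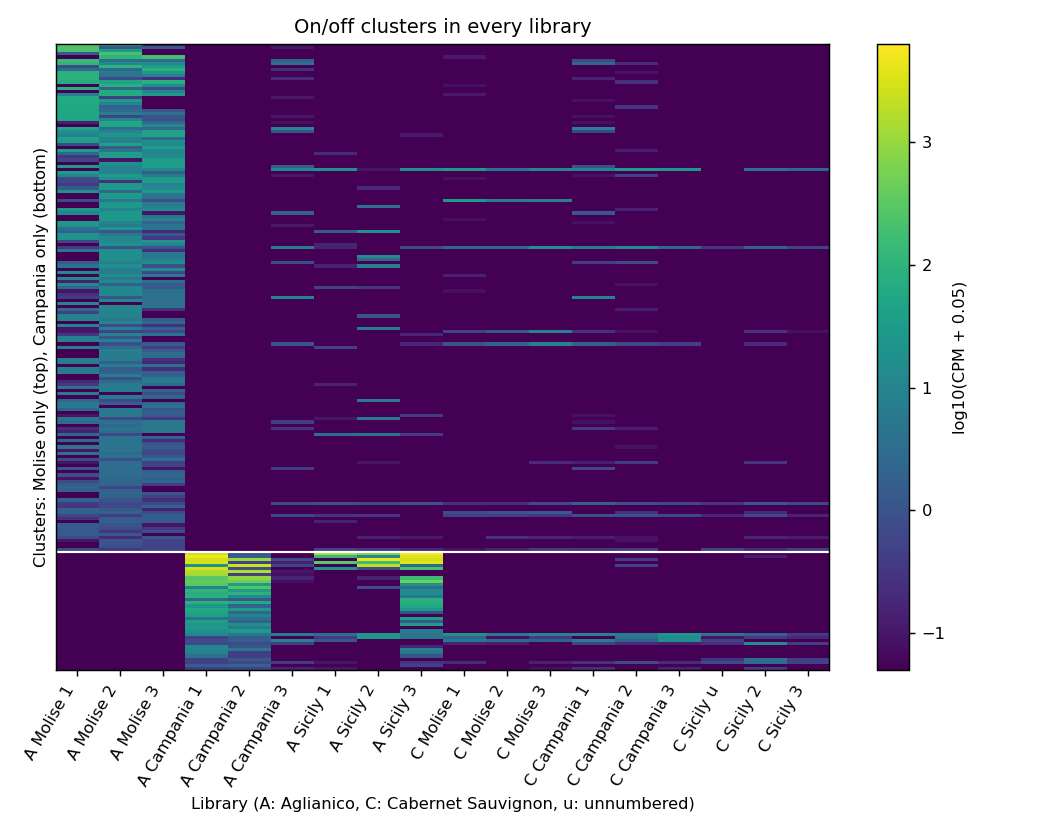
Rows are the 201 on/off clusters (163 Molise only above the white line, 38 Campania only below it), and columns are the 18 libraries, among them the left-out one (A Campania 3); colour is log10(CPM + 0.05). The Campania-only rows are bright again in Aglianico Sicily replicate 3, where 27 of the 38 have 10 or more counts, and the Molise-only rows are dark in most libraries outside Aglianico Molise.

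Clusters with a 0 in some library gave 5 more calls. Each had 3 counts or fewer at 1 site. The 2 that were lower at Molise held 3 counts and 1 count there in all, against means of 5589 and 1392 CPM at Campania. Their ratios, Campania over Molise, were 130000 (95% Poisson interval 44300 to 628000) and 96800 (17400 to 3820000), with adjusted p of 0.0108 and 0.0114 (edgeR). The 3 that were higher at Molise averaged 101.2, 58.1 and 8.37 CPM there, against 1 count each at Campania. Their ratios, Molise over Campania, were 5520 (interval 991 to 218000), 3170 (569 to 125000) and 457 (81.9 to 18000), with adjusted p of 0.00193, 0.0223 and 0.019 (edgeR). The intervals cover counting error only and leave out the spread within a site.

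Some of these clusters took a large part of a library. There were 37 clusters that reached 500 CPM in 1 of the 5 libraries and stayed at or under 0.1 CPM in another (CPM from unscaled totals here), of which 10 were Campania only, 0 were Molise only and 22 were among the tested clusters with a 0 in some library. They held 0.573%, 0.483% and 1.75% of the counts in the Molise libraries, against 5.94% and 3.64% in the Campania libraries. In Aglianico from Sicily they held 0.954%, 6.26% and 7.7%, and in each Cabernet Sauvignon library under 0.1%. Leaving them out of the library sizes and scaling kept all 31 calls.

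Where berries from Sicily stood on the axis between the sites differed by direction. Of the 391 clusters higher at Molise in Aglianico (11-library fit), the Sicily mean was nearer to Campania in 59.8%, on the scale log2(CPM + 0.5). For the 354 lower clusters this share was 48.3%, and over all tested clusters it was 47.1%. Of the 13 counted clusters called in the 5-library test as higher, 12 were nearer to Campania. No test was made of these shares, since the Molise and Campania libraries define the lists.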

How the data were processed

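RNA was sequenced from ripe Aglianico and Cabernet Sauvignon berries. Per cluster and library the authors deposited expected counts, estimates that may have decimals, without scaling for depth. In each of the 5 libraries used, 6.16% to 7.37% of the values had decimals. CASAVA 1.8, RSEM and DESeq2 appear in the submitters' processing notes, with no role stated. For aligner, assembler and genome build: not given in the sources used here. Column names equal to the sample descriptions placed the libraries. A Cabernet Sauvignon Sicily column without a legible replicate number was matched to its group only. Of the columns, 0 were left aside.

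Counts were rounded. Library size was the sum over all 97442 clusters. Clusters with 10 or more counts in at least 2 of the 5 libraries were kept (24472, holding 98.8% to 99.6% of counts in these libraries). Scaling used the trimmed mean of M values (TMM) of the 5 libraries, and the other libraries were scaled to the same reference library. The factors of the 5 libraries lay between 0.922 and 1.113. CPM were computed here from counts, library sizes and these factors.

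The test was edgeR 4.0.16 (glmQLFit with robust shrinkage, glmQLFTest, R 4.3.3). Tested on simulated data for 5 libraries, it gave the right signs, but the share of false calls was above the nominal level, so an adjusted p from the 5-library test may be too small. A called cluster has a Benjamini-Hochberg adjusted p under 0.05 over all kept clusters. Standard errors are log2 fold changes over the square root of F. Where a site held no count, the fold is set against 3 counts summed over that site, and bounds cover counting error only. The interaction and the Cabernet Sauvignon contrast came from a fit of 4 group means on 11 libraries. Without a Campania library, the remaining one is assumed to vary like Molise.

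At most 2 higher and 2 lower clusters were named per class: for counted clusters, the largest fold changes among calls that averaged 5 CPM or more without overlap; for on/off clusters, the highest means among those with 10 counts in every library of the site; for the interaction, the largest among calls with counts in all 11 libraries and a mean of at least 5 CPM. The libraries, classes and rules were chosen with earlier results of these data known. Alternatives were other scalings, filters, tools (DESeq2 1.42.0, limma 3.58.1), library sets, a replicate block and leaving out each library.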

Additional observations from a re-analysis of the deposited data

Results flagged for a closer look

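The difference between Molise and Campania was tested for a difference between the varieties, and 655 clusters passed. The largest among those counted in all 11 libraries with a mean of 5 CPM or more were Cluster-27903.29897 (interaction log2 fold change 5.54) and Cluster-27903.31930 (4.82), both higher at Molise in Aglianico and lower at Molise in Cabernet Sauvignon by their means. In the other direction were Cluster-27903.34611 (-5.57) and Cluster-27903.21774 (-3.89), low in the Aglianico Molise libraries alone among the 4 groups of the fit.

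Aglianico Sicily libraries, which enter no test here, held 10 or more counts of 28 of the 38 clusters that were counted at Campania and had no count at Molise. Replicate 3 held 27 of these, and replicates 1 and 2 held 6 and 9, so without replicate 3 the number was 10. The same share over all tested clusters was not counted, so no conclusion is drawn from it.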

How the results depend on the processing

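All 31 calls of the 5-library test were kept with DESeq2-type (RLE) size factors and without the 37 clusters in the library sizes, 29 of them with upper-quartile factors and 28 with the filterByExpr filter. The count moved to 1488 with no filter, 17 with the 23449 counted clusters alone, 1244 by DESeq2, 9 by limma-voom (3381 at an unadjusted p under 0.05), 17 without robust shrinkage, 4 with the left-out library, 604 in a fit on 17 libraries and 745 on 11. For counted clusters (15 calls) these were 1199 with no filter, 1038 by DESeq2, 3 by limma-voom, 6 without robust shrinkage, 1 with the left-out library, 30 on Aglianico alone (8 libraries), 569 on 17 and 685 on 11 libraries. For on/off clusters (11 calls) they were 90 with no filter, 120 by DESeq2, 5 by limma-voom, 6 without robust shrinkage, 1 with the left-out library, 4 on Aglianico alone and 27 on 11 libraries. Without 1 library, the 3 counts ran from 13 to 93, 3 to 29 and 7 to 48.

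The 745 Aglianico calls of the 11-library fit became 2239 with no filter and 2459 by DESeq2, and 118 to 1536 without 1 library. The 655 interaction calls became 1913 and 2196, and 153 to 1849 without 1 library. The 2263 Cabernet Sauvignon calls became 3733 and 4175, and 529 to 3243 without 1 library. These settings of the Aglianico contrast in the 11-library fit were chosen after seeing the data. The cause of these shifts was not tested.

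With the replicate number as a block (replicates 1 and 2 of each site, 4 libraries) the 5-library count was 258, with 76 counted and 120 on/off clusters. The block gave 637 for the Aglianico contrast in the 11-library fit, 505 for the interaction and 2963 for Cabernet Sauvignon. The labels do not say that a number marks a shared vine or day. The log2 difference of replicate 1 minus 2 at Molise correlated across clusters at 0.273 with that at Campania, and that of replicate 3 minus 2 at Molise at 0.305. All these differences contain replicate 2 of a site, so they cannot decide whether libraries of the same number share more than the number. The main test used no block.

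Among the named clusters every fold change kept its sign in all 224 refits, and 186 of them also kept their side of the threshold. The sign was largely fixed by how the clusters were named, so keeping it is no separate support. Named on/off clusters had no count at a site in the libraries used. Counted clusters were named for large fold changes without overlap, and interactions for their size. Limma-voom lost all 4 counted calls (adjusted p = 0.0945 to 0.308). With the left-out library, Cluster-27903.16623 (0.31), Cluster-27903.37374 (0.0559) and Cluster-27903.28530 (0.435) were lost. On 8 libraries Cluster-27903.16623 (0.156) and Cluster-27903.37374 (0.26) were lost, the second also on 17 (0.106) and, without robust shrinkage, at 0.0817 with Cluster-27903.28530 (0.0787). The replicate block lost Cluster-27903.16623 (0.0584) and gained Cluster-27903.58593 (0.00275), Cluster-27903.33444 (0.00167) and Cluster-27903.22818 (0.00166). With 2 libraries at Campania, a 10-count minimum and no gene names, low clusters and the identity of any cluster limit what the comparison can show.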
